A study of Mus musculus with 6 samples.

Results

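DNA replication and S-phase genes were followed in KMWT1, a mouse glioma cell line, after an siRNA against the transcription factor YY1. They were the 47 of 24982 gene symbols in the count tables that match a fixed list of names. The list covers origin licensing, the replicative helicase, polymerases, the sliding clamp and its loader, nucleotide supply, chromatin assembly and the regulators of S-phase entry. All 47 were in the tables and all 47 passed the filter on low counts, which kept 12148 genes. RNA sequencing was done on 3 YY1 siRNA samples (4, 5 and 6), transfected with a commercial pool of siRNAs to YY1, and on 3 control siRNA samples (1, 2 and 3). Both groups grew in DMEM with fetal bovine serum, and RNA was taken at 48 hours. All samples came from 1 cell line, and the labels do not say whether the samples of a group were separate cultures. The p-values therefore cover only how far these samples differ from each other, which could be technical spread.

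Replication begins when the origin recognition complex, CDC6 and CDT1 load the MCM helicase onto DNA in G1. In S phase CDC45 and GINS join MCM to make the active helicase, primase and polymerase alpha lay down primers, and polymerases delta and epsilon extend them on the PCNA clamp that the RFC complex loads. E2F transcription factors, released from the retinoblastoma protein at the end of G1, drive transcription of many of these genes and of cyclin E, which activates CDK2, so their RNA is higher in cells that are in late G1 and S phase. In a bulk sample, a larger share of cells in S phase and more RNA per cell cannot be told apart.

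Most replication genes had slightly higher fitted levels in YY1 siRNA samples, and none passed the test over all genes. The fitted change was above 0 for 39 of the 47 (83.0%), against 50.2% of all genes tested, and the median log2 fold change was 0.13 against 0.00070 over all genes. With edgeR's quasi-likelihood test, 0 of 47 had an adjusted p under 0.05, as did 0.00823% of all genes, and the smallest adjusted p among them was 0.267. DESeq2 and limma-voom also called 0. At an unadjusted p under 0.05 there were 11 members, all higher in YY1 siRNA samples (23.4%), against 5.38% of all genes in that direction and 5.46% in the other. The 3 YY1 siRNA samples lay entirely above the 3 control siRNA samples for 8 members (17.0%) and entirely below for 0, against 7.36% and 8.91% of all genes. The 95% interval of the change lay within 1.5-fold in either direction for 35 members, against 82.2% of all genes, and within 2-fold for 46, with Ccne2 the exception.

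The controls were not alike in these genes. In TMM-normalised CPM (counts scaled to a common library total), 37 of the 47 had their lowest value in control siRNA sample 1 or 2, against 28.3% of all genes, and control siRNA sample 1 was the highest library for 0 members. Control siRNA sample 3 exceeded both other controls for 37 members, against 34.8% of all genes, with a median log2 difference of 0.21 from their mean. Set against control siRNA sample 3 alone, the YY1 siRNA mean was higher for 24 of 47 members, with a median log2 difference of 0.0032. Set against control siRNA samples 1 and 2, it was higher for 40, with a median of 0.17. Without control siRNA sample 3, the samples of the groups did not overlap for 26 members, all higher in YY1 siRNA, against 16.2% of all genes. The median log2 fold change was then 0.18, and 17 members (all higher) had an unadjusted p under 0.05, against 6.45% of all genes in that direction, while 0 passed the adjusted threshold.

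**Figure D1:**
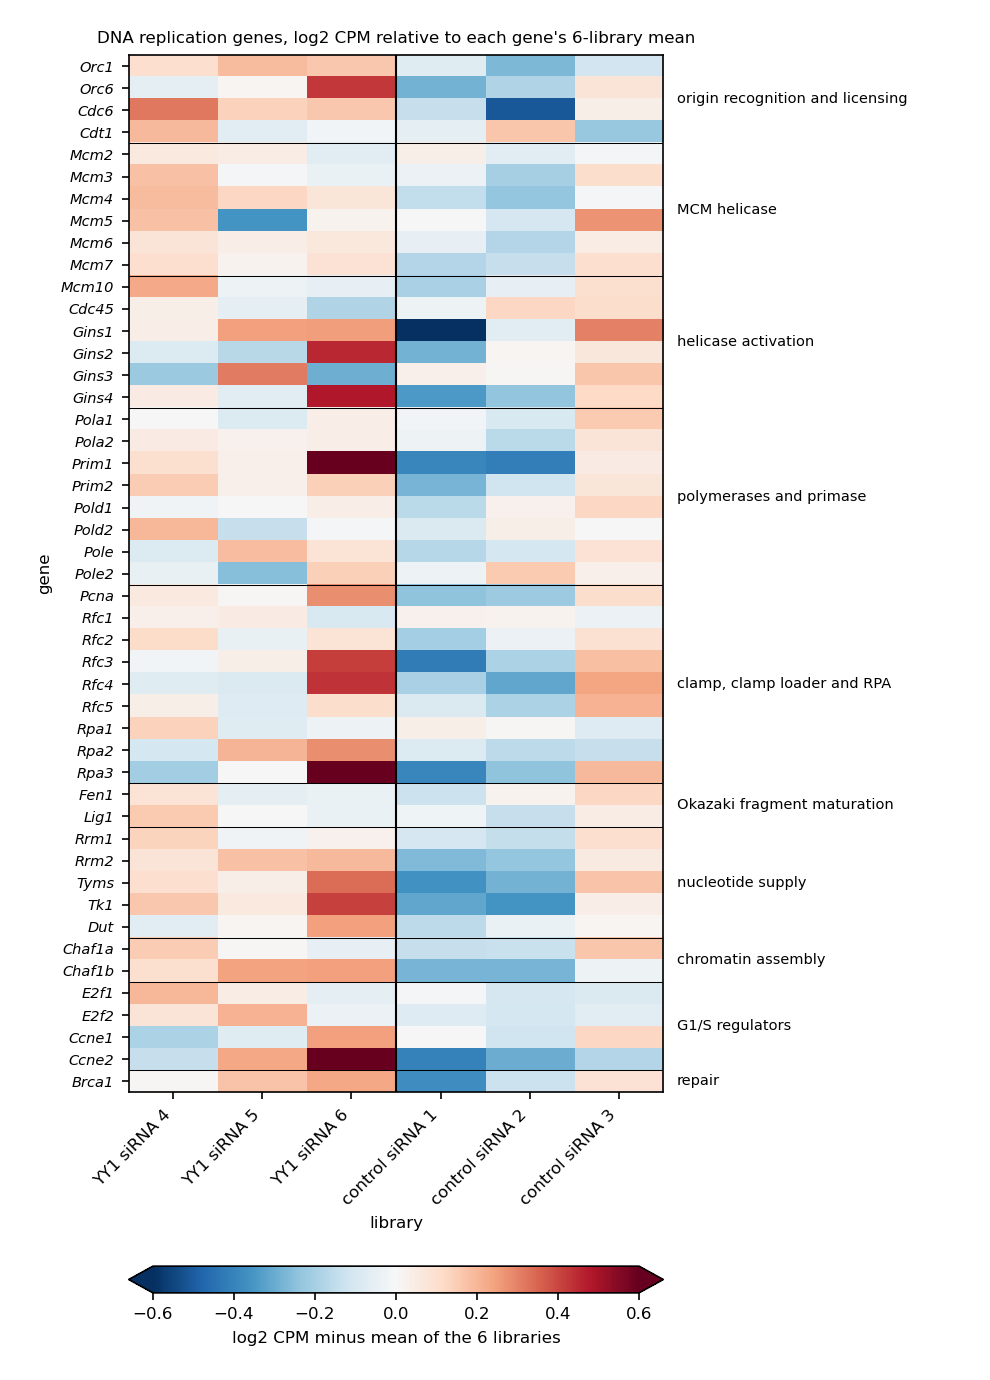
Log2 CPM of each of the 47 replication genes (rows, by role) in each library (columns), relative to the gene's mean over the 6 libraries; colours beyond ±0.6 are shown at the ends of the scale. Control siRNA samples 1 and 2 are the bluest columns, while control siRNA sample 3 resembles the YY1 siRNA samples.

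The siRNA lowered its target. Yy1, at chr12:108792973-108820148, had 81.2, 77.6 and 78.6 CPM in YY1 siRNA samples 4, 5 and 6, against 127, 128 and 126 CPM in control siRNA samples 1, 2 and 3. This is 62.3% of control (95% interval 56.5% to 68.6%, log2 fold change -0.68, SE 0.064, edgeR adjusted p 0.00154), and Yy1 was the 1 gene of 12148 called. Every YY1 siRNA sample lay below every control siRNA sample, and all still held Yy1 RNA. Depth, as the sum of counts over genes, was 15738457 to 19210104 with YY1 siRNA and 18680762 to 20644057 with control siRNA. YY1 siRNA sample 6 stood apart on the first principal component, which held 44.2% of the variance. On the second, which held 18.7%, YY1 siRNA sample 4 stood apart. Sample 6 is the 1 sample whose counts are not marked as combined, a mark the labels do not explain. Counts outside genes made up 7.87%, 10.7% and 11.3% with YY1 siRNA (samples 4, 5 and 6), against 7.99% to 9.03% with control siRNA. The summed level of 6 nuclear-retained noncoding RNAs was 1535, 2416 and 2569 CPM with YY1 siRNA, against 1967, 1778 and 2306 CPM with control siRNA. Of these 6 only 2, Neat1 and Malat1, stood at 10 CPM or more, and 3 were under 1 CPM. The part of these RNAs and of the combined mark in the results was not tested. Of 10 glioma stem and progenitor markers, 7 stood at 10 CPM or more, while Olig2 and Prom1 had no counts. The summed level of the 10 was 11685 to 14275 CPM in YY1 siRNA and 12579 to 14264 CPM in control siRNA samples, and of the 7 tested 1 lay above 0 and 6 below (median log2 fold change -0.08). Of 5 fibroblast and pericyte markers 4 stood at 10 CPM or more, with a summed level of 804 to 1024 CPM in YY1 siRNA and 954 to 1114 CPM in control siRNA samples. All 5 neuron and all 5 microglia and macrophage markers were under 1 CPM. Of 5 endothelium markers 4 were under 1 CPM, but Cdh5 stood at 47.4 ± 4.08 and 53.3 ± 3.71 CPM, and of 5 oligodendrocyte markers 3 were under 1 CPM, but Cnp stood at 14.7 ± 2.57 and 17.4 ± 0.581 CPM (YY1 siRNA and control siRNA samples, SD, n = 3).

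Among origin licensing genes, all 4 had a fitted change above 0 and Cdc6 and Orc1 had an unadjusted p under 0.05. Cdc6, the ATPase that helps load the helicase and lies at chr11:98907801-98923940 (mm10), had 7.34, 6.48 and 6.59 CPM in YY1 siRNA samples, against 5.34, 4.10 and 6.03 CPM in control siRNA samples. The groups did not overlap, and control siRNA sample 3 lay nearest to the YY1 siRNA samples (log2 fold change 0.40, SE 0.15, edgeR adjusted p 0.373). Without control siRNA sample 2, its lowest library, the log2 fold change was 0.26. Orc1, the ATPase subunit of the origin recognition complex at chr4:108579423-108614833, had 4.19, 4.46 and 4.37 CPM in YY1 siRNA samples, against 3.70, 3.22 and 3.598 CPM in control siRNA samples. Here the groups also lay apart, and control siRNA sample 3 was not the highest control (log2 fold change 0.31, SE 0.14, edgeR adjusted p 0.459). Orc6, the smallest subunit of the complex, had 25.9, 27.2 and 36.3 CPM against 22.2, 23.8 and 28.5 CPM in control siRNA samples. Its groups overlapped, and YY1 siRNA sample 6 held the highest value, without which the log2 fold change of 0.26 was 0.09. Cdt1, the loading factor that geminin inhibits, overlapped too, at 20.3 to 24.3 CPM in YY1 siRNA and 18.1 to 23.9 CPM in control siRNA samples.

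Promoter sequence is shown for these licensing genes and for Rrm2 and Tk1 because they are among the members whose groups lay apart. Each window runs from 150 bases before to 30 bases after the RefSeq start (GRCm38.p6), 5′ to 3′ on the gene's strand. Capitals mark matches on either strand to the E2F letters TTTCCCGC, TTTCGCGC, TTTGCCGC or TTTGGCGC and to the NF-Y letters CCAAT. The Cdc6 and Orc1 windows each hold 1 E2F match, the Orc1 and Rrm2 windows hold 2 and 1 CCAAT, and the Tk1 window holds neither.
Cdc6, plus strand, chr11:98908001-98908180: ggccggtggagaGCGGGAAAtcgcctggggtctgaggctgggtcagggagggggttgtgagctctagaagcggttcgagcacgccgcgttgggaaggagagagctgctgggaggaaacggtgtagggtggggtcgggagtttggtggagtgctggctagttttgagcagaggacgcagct
Orc1, plus strand, chr4:108579304-108579483: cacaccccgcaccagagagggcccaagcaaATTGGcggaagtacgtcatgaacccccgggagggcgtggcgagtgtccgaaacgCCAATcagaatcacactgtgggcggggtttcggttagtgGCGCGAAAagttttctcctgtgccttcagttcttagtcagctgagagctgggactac
Rrm2, plus strand, chr12:24708104-24708283: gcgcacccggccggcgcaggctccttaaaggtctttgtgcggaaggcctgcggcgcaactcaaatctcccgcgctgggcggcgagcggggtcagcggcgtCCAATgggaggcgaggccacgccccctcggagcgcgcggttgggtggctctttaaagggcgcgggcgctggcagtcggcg
Tk1, minus strand, chr11:117825985-117826164: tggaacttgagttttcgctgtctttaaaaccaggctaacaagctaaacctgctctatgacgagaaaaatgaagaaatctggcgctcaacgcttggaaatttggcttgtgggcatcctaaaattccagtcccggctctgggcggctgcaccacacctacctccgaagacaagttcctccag

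Of the 6 subunits of the MCM helicase, which unwinds DNA ahead of the fork, 5 had a fitted change above 0 and 1 below. Mcm4, at chr16:15623897-15637400, had 55.8, 53.3 and 51.4 CPM in YY1 siRNA samples, against 44.1, 41.6 and 48.5 CPM in control siRNA samples. It was the 1 MCM subunit whose groups lay apart (log2 fold change 0.26, SE 0.078, edgeR adjusted p 0.267). Mcm7 had 63.2, 59.9 and 62.7 CPM in YY1 siRNA samples, against 52.3, 53.6 and 63.3 CPM in control siRNA samples. Control siRNA sample 3 was the highest of the 6 libraries for Mcm7, and its log2 fold change of 0.14 was 0.23 without that library and 0.08 without control siRNA sample 1. Mcm2, Mcm3 and Mcm6 had log2 fold changes of 0.02, 0.08 and 0.12 with overlapping groups, and Mcm5 had -0.10 (SE 0.14). For Mcm5, YY1 siRNA sample 5 was the lowest library at 12.7 CPM and control siRNA sample 3 the highest at 19.6 CPM. Summed over the 6 subunits, the level was 263 ± 10.2 CPM in YY1 siRNA and 243 ± 19.2 CPM in control siRNA samples (SD, n = 3), with control siRNA sample 3 at 264 CPM. Per kilobase of exon, Mcm7 (14.0 ± 0.404 RPKM in YY1 siRNA and 12.7 ± 1.36 RPKM in control siRNA samples) and Mcm4 (14.9 ± 0.608 and 12.5 ± 0.980 RPKM) stood highest of the subunits and Mcm5 (3.97 ± 0.729 and 4.26 ± 0.584 RPKM) lowest. The order of Mcm4 and Mcm7 was within their spread in control siRNA samples.

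CDC45, GINS and MCM10 turn the loaded MCM ring into a moving helicase, and none of their 6 genes had an unadjusted p under 0.05. Cdc45 had the lowest fitted change of all 47 members, with 52.3, 49.2 and 45.1 CPM in YY1 siRNA samples, against 50.1, 55.8 and 55.0 CPM in control siRNA samples (log2 fold change -0.13, SE 0.079, edgeR adjusted p 0.531). Without YY1 siRNA sample 6, its lowest library, the log2 fold change was -0.09. Gins1 had 4.04, 4.67 and 4.70 CPM in YY1 siRNA samples, against 2.26, 3.74 and 4.87 CPM in control siRNA samples. Its log2 fold change of 0.31 (SE 0.23) was 0.05 without control siRNA sample 1, its lowest library, and 0.58 without control siRNA sample 3, its highest. Gins2 and Gins4 were highest in YY1 siRNA sample 6, at 14.6 and 32.8 CPM, while Gins3 was lowest there, at 2.09 CPM. The 4 GINS genes thus differed in which library was highest. Mcm10 stood at 6.59 to 8.02 CPM in YY1 siRNA and 5.96 to 7.30 CPM in control siRNA samples.

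Among the 8 polymerase and primase genes, the primase pair had the highest fitted changes. Prim1, the catalytic primase subunit, had 17.6, 16.8 and 25.4 CPM in YY1 siRNA samples, against 12.5, 12.3 and 17.0 CPM in control siRNA samples. YY1 siRNA sample 6 lay far above the rest, and control siRNA sample 3 exceeded YY1 siRNA sample 5 (log2 fold change 0.51, SE 0.19, edgeR adjusted p 0.400). Its log2 fold change was 0.30 without YY1 siRNA sample 6 and 0.33 with the share of counts outside genes as a covariate. Prim2, the large primase subunit, had 67.4, 62.0 and 66.9 CPM in YY1 siRNA samples, against 49.9, 55.8 and 63.6 CPM in control siRNA samples (log2 fold change 0.21, SE 0.089, edgeR adjusted p 0.420). Without control siRNA sample 1, its lowest library, the log2 fold change was 0.13. Again it was control siRNA sample 3 that reached into the range of the other group. The polymerase genes lay closer to 0. Pola1 and Pola2, catalytic and accessory subunits of polymerase alpha, had log2 fold changes of -0.04 and 0.08, Pold1 and Pold2 of polymerase delta 0.0041 and 0.04, and Pole and Pole2 of polymerase epsilon 0.12 and -0.10. All 6 had overlapping groups and an unadjusted p above the threshold. For Pold1, the exonuclease-bearing catalytic subunit, the 95% interval ran from -0.18 to 0.19.

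Of the clamp, its loader and the single-strand binding protein RPA, 8 of 9 genes had a fitted change above 0 and Pcna alone had an unadjusted p under 0.05. Pcna, the sliding clamp, had 89.6, 86.4 and 104 CPM in YY1 siRNA samples, against 72.8, 73.9 and 92.5 CPM in control siRNA samples. Control siRNA sample 3 exceeded YY1 siRNA samples 4 and 5 (log2 fold change 0.23, SE 0.10, edgeR adjusted p 0.460). The log2 fold change was 0.14 when YY1 siRNA sample 6 was left out and 0.35 when control siRNA sample 3 was. Rpa3, the smallest RPA subunit, had 39.2, 45.4 and 71.0 CPM in YY1 siRNA samples, against 34.6, 38.4 and 52.0 CPM in control siRNA samples. Within each group 1 library stood well above the others, YY1 siRNA sample 6 and control siRNA sample 3 (log2 fold change 0.31, SE 0.24, edgeR adjusted p 0.640). Leaving out 1 YY1 siRNA sample gave 0.02 (sample 6) or 0.48 (sample 4), and leaving out 1 control gave 0.19 (sample 1) or 0.50 (sample 3). Rpa1, the largest RPA subunit and the most abundant member in CPM, stood at 119, 103 and 106 CPM in YY1 siRNA samples and 111, 108 and 102 CPM in control siRNA samples (log2 fold change 0.03). Among the loader genes, Rfc3 and Rfc4 were highest in YY1 siRNA sample 6, at 30.5 and 31.7 CPM, and next highest in control siRNA sample 3, at 25.9 and 27.7 CPM. Rfc1, the large subunit of the loader, differed little between libraries, at 45.3 to 49.97 CPM in YY1 siRNA and 47.1 to 49.3 CPM in control siRNA samples. Rpa2, the middle RPA subunit, had 8.18, 10.1 and 10.7 CPM in YY1 siRNA samples, against 8.32, 7.89 and 7.99 CPM in control siRNA samples, and overlapped through YY1 siRNA sample 4. The loader genes Rfc2 and Rfc5 overlapped as well, with log2 fold changes of 0.10 and 0.03. For the ligase gene Lig1 and the flap endonuclease gene Fen1, which finish Okazaki fragments, the log2 fold changes were 0.08 and -0.01.

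Of the genes for deoxynucleotide supply, all 5 had a fitted change above 0, and Tk1 and Rrm2 had an unadjusted p under 0.05. Tk1, the S-phase thymidine kinase at chr11:117815526-117826092, had 24.4, 22.7 and 29.1 CPM in YY1 siRNA samples, against 17.6, 17.0 and 22.4 CPM in control siRNA samples. The groups lay apart by the narrow gap between YY1 siRNA sample 5 and control siRNA sample 3 (log2 fold change 0.41, SE 0.12, edgeR adjusted p 0.267). Tk1 overlaps Afmid on the other strand, whose log2 fold change was -0.11 (SE 0.12), and the sources used here do not say whether counting used strand. Its counts are uncertain for that reason. Rrm2, the regulated small subunit of ribonucleotide reductase at chr12:24708241-24714146, had 43.9, 47.05 and 47.7 CPM in YY1 siRNA samples, against 34.6, 35.4 and 43.2 CPM in control siRNA samples. The gap was again set by control siRNA sample 3 (log2 fold change 0.29, SE 0.091, edgeR adjusted p 0.299). Rrm1, the large subunit, had a log2 fold change of 0.09 with overlapping groups. Tyms, thymidylate synthase, had 16.4, 15.7 and 19.3 CPM in YY1 siRNA samples, against 11.9, 12.6 and 17.2 CPM in control siRNA samples (log2 fold change 0.30, SE 0.14, edgeR adjusted p 0.472). Dut, the dUTPase, stood at 87.8 to 109 CPM in YY1 siRNA and 82.6 to 92.7 CPM in control siRNA samples, and its log2 fold change of 0.13 was 0.03 without YY1 siRNA sample 6.

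**Figure D2:**
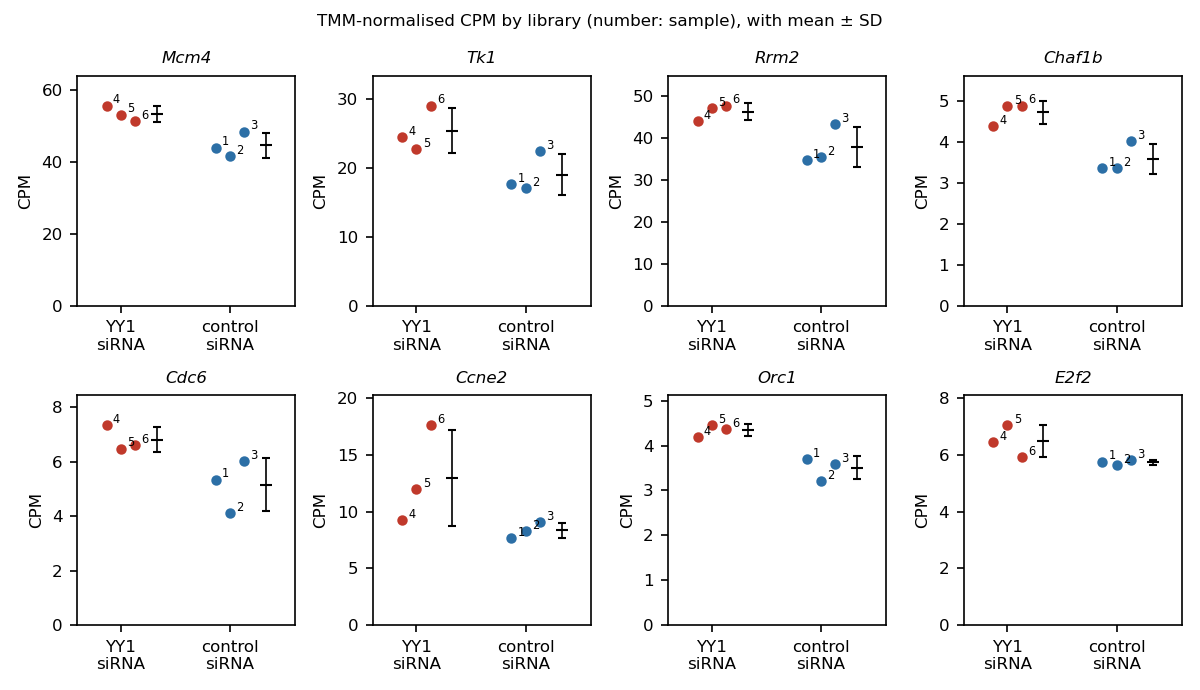
TMM-normalised CPM of the 8 replication genes whose groups did not overlap, by library (points, numbered by sample), with the mean ± SD of each group (n = 3). All axes start at 0; control siRNA sample 3 is the control nearest to the YY1 siRNA samples for Mcm4, Tk1, Rrm2, Chaf1b, Cdc6, Ccne2 and E2f2, and control siRNA sample 1 for Orc1.

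Among the regulators of S-phase entry, cyclin E2 had the largest fitted change of all members. Ccne2, at chr4:11191351-11204779, had 9.28, 12.001 and 17.6 CPM in YY1 siRNA samples, against 7.70, 8.31 and 9.05 CPM in control siRNA samples. The YY1 siRNA samples were far from each other, and sample 4 lay just above the controls (log2 fold change 0.62, SE 0.215, edgeR adjusted p 0.377). The log2 fold change was 0.34 without YY1 siRNA sample 6, 0.82 without sample 4 and 0.27 with the share of counts outside genes as a covariate. Ccne2 overlaps Ints8 on the other strand, which had a log2 fold change of -0.10 (SE 0.069), so its counts are uncertain as well. Its relative Ccne1 stood at 5.09 to 6.92 CPM in YY1 siRNA and 5.35 to 6.35 CPM in control siRNA samples, with a log2 fold change of -0.01. E2f1, an activator of S-phase genes, had 98.3, 88.2 and 82.4 CPM in YY1 siRNA samples, against 85.0, 79.8 and 80.6 CPM in control siRNA samples (log2 fold change 0.13, SE 0.078, edgeR adjusted p 0.527). Its log2 fold change was 0.07 without YY1 siRNA sample 4 and 0.23 with the share of counts outside genes as a covariate. For E2f2, another activator, the groups did not overlap, at 6.45, 7.06 and 5.94 CPM in YY1 siRNA and 5.77, 5.66 and 5.82 CPM in control siRNA samples, but its unadjusted p was 0.167. Chaf1b, a subunit of the chromatin assembly factor CAF-1 that places histones behind the fork, had 4.40, 4.89 and 4.90 CPM in YY1 siRNA samples, against 3.37, 3.37 and 4.02 CPM in control siRNA samples (log2 fold change 0.40, SE 0.14, edgeR adjusted p 0.362). Its groups lay apart, while those of Chaf1a, the large CAF-1 subunit, overlapped (log2 fold change 0.07). Brca1, which acts in recombination repair and at stalled forks, had 23.6, 26.5 and 27.7 CPM in YY1 siRNA samples, against 18.2, 21.5 and 25.03 CPM in control siRNA samples (log2 fold change 0.27, SE 0.11, edgeR adjusted p 0.431). Its log2 fold change was 0.15 without control siRNA sample 1 and 0.14 with the share of counts outside genes as a covariate.

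**Figure D3:**
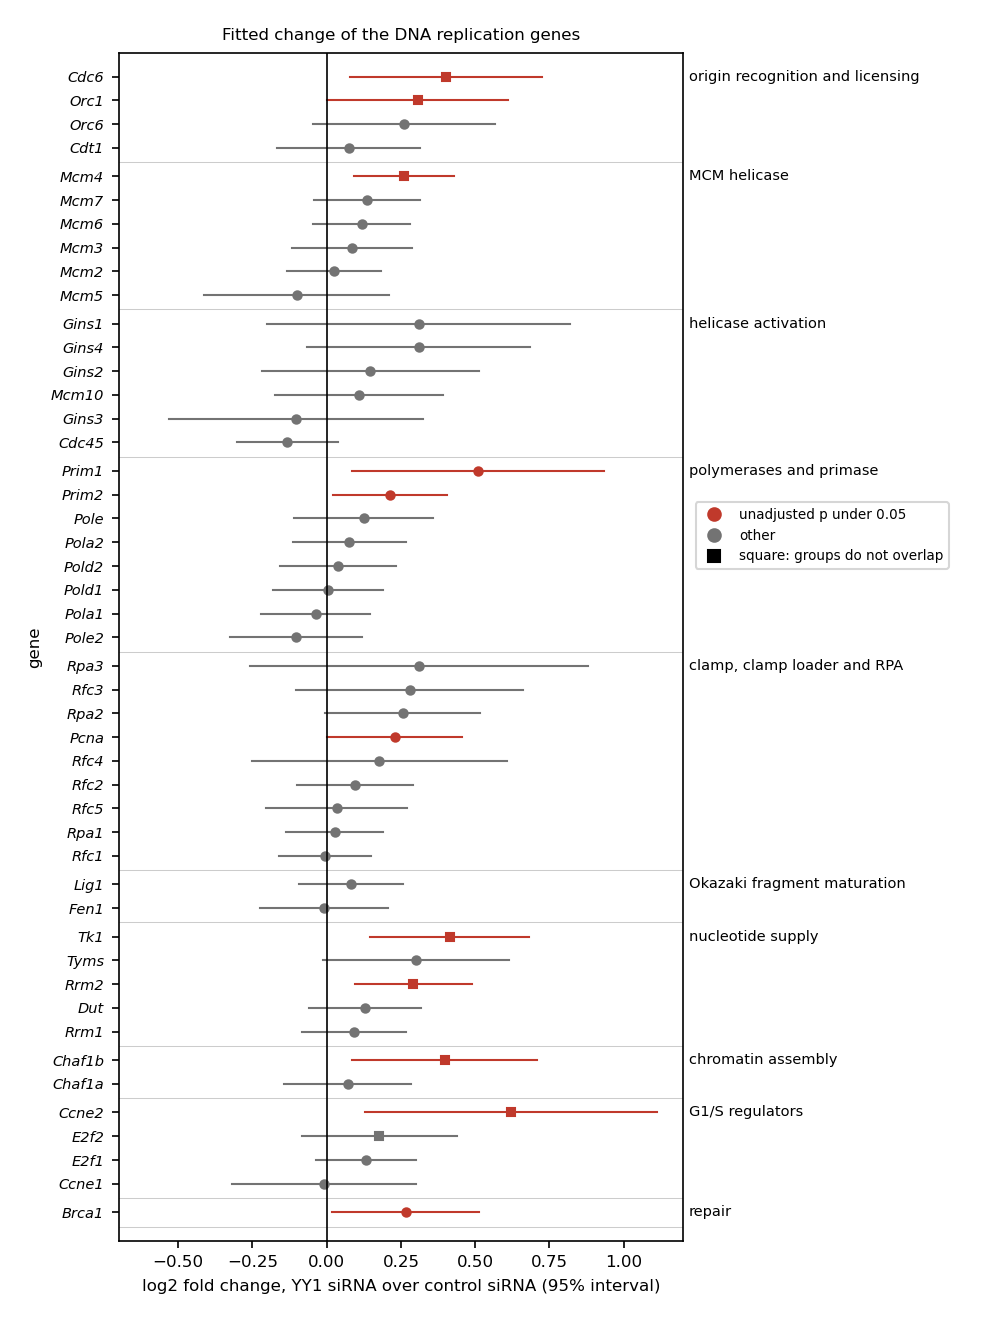
Log2 fold change, YY1 siRNA over control siRNA, of the 47 replication genes with 95% intervals, by role. Red marks the 11 genes with an unadjusted p under 0.05 and squares the 8 whose groups did not overlap; 39 of 47 lie above 0 and none passed the adjusted threshold.

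Levels spread widely among the members when compared per length. In RPKM over the union of annotated exons, Rpa3, Dut, Pcna, E2f1 and Pold2 stood highest, with Rpa3 at 45.7 ± 14.8 RPKM in YY1 siRNA and 36.7 ± 8.04 RPKM in control siRNA samples. Dut was at 40.1 ± 4.67 and 36.6 ± 2.15 RPKM, and Pcna at 39.0 ± 3.99 and 33.2 ± 4.62 RPKM, so the order of these 3 was within their spread. Chaf1b was lowest in control siRNA samples (1.0102 ± 0.0600 RPKM in YY1 siRNA and 0.766 ± 0.0802 RPKM in control siRNA samples), near Mcm10, Cdc6, Gins3 and Orc1. Counts behind a value ran from 32 to 2300 per library. Exons of 16 members overlap those of another gene in GENCODE M21, 14 of them on the other strand, Orc1, Orc6, Mcm7, Cdc45 and Pcna's loader genes Rfc2, Rfc4 and Rfc5 included, and their counts are uncertain for the reason given for Tk1. Vps35, which overlaps Orc6, stood at 258 ± 33.7 CPM in YY1 siRNA and 228 ± 7.11 CPM in control siRNA samples (log2 fold change 0.17, SE 0.090). Eif4a2, which overlaps Rfc4, stood at 414 ± 72.8 and 358 ± 16.6 CPM (log2 fold change 0.21, SE 0.11). Both were higher, like Orc6 (0.26) and Rfc4 (0.18), unlike Afmid and Ints8 above. Whether their reads were counted for the members was not tested. Pcna and Tyms have annotated copies named as their pseudogenes (Pcna-ps1, Pcna-ps2 and Tyms-ps), whose reads could be shared. Copies of members under other names were not looked for.

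Shorter members stood higher in YY1 siRNA sample 6. The 23 members with the shortest exons (1136 to 3868 bases) had a median log2 deviation of 0.23 from their 6-library mean in that sample, against 0.05 for the other 24. For YY1 siRNA sample 4 the same medians were 0.03 and 0.09. Across the 47 members, Spearman's rho between exon length and the deviation was -0.35 for YY1 siRNA sample 6 and 0.28 for sample 4, against -0.20 and -0.18 across 12058 genes with a length. For YY1 siRNA sample 5 it was 0.11, against 0.32 across those genes. Control siRNA samples 1, 2 and 3 had 0.15, 0.05 and -0.07, against 0.19, 0.12 and -0.115. Each of these values describes genes of 1 library, which share its depth and preparation and are not replicates. The median log2 fold change was 0.23 for the shorter members, 18 of 23 above 0, and 0.10 for the longer, 21 of 24 above 0. When all genes were split at their own median length, 3301 of 6029 shorter and 2745 of 6029 longer genes were above 0. Without YY1 siRNA sample 6, 37 of all 47 were above 0 (median 0.11).

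**Figure D4:**
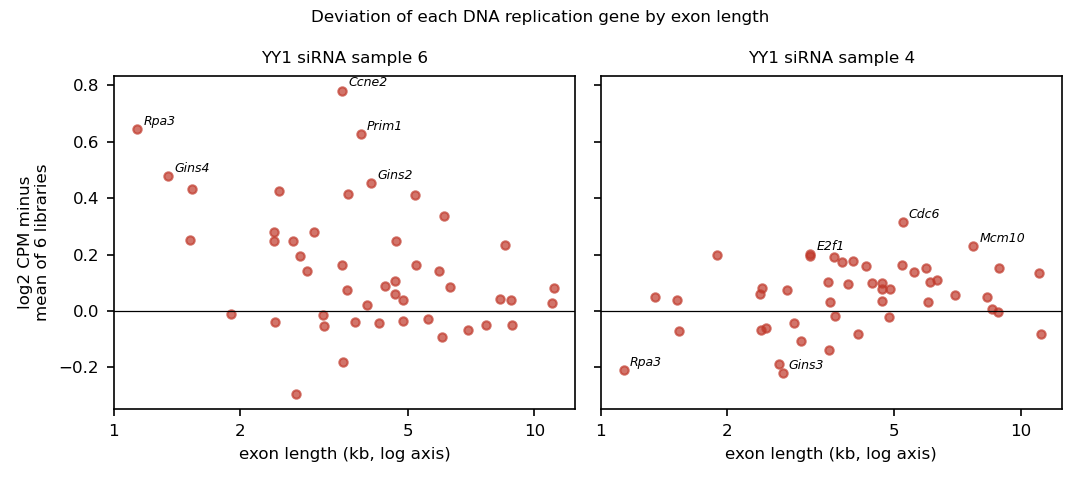
Log2 CPM of each of the 47 replication genes relative to its 6-library mean, against exon length in kilobases (log axis), in YY1 siRNA samples 6 (left) and 4 (right). The 5 genes farthest from 0 are named. In sample 6 these are Ccne2, Rpa3, Prim1, Gins4 and Gins2, all high, of which Gins2 belongs to the longer members. In sample 4 Rpa3 and Gins3 lie low, and Cdc6, Mcm10 and E2f1 lie high.

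E2F letters, the form that E2F factors bind, were looked for in the promoters of replication genes. RefSeq gave promoters of 300 bases (250 before to 50 after the start) for 39 members. Of these, 14 (35.9%) held at least 1 of the 4 E2F forms, against 448 of 9537 other tested genes (4.70%). CCAAT was in 24 (61.5%), against 43.5% of the others, and the CHR letters TTTGAA, an element of late cell cycle promoters, in 6 (15.4%), against 14.0%. The YY1 letters AANATGGCG were in 3 (7.69%), against 6.15%. Members with an E2F match had a median log2 fold change of 0.08 and those without 0.13. A match describes letters, not binding. Sites of 30 bases are shown for the 4 MCM genes with a match and for Rfc3, with the E2F letters in capitals, read on the strand where they are spelled as above. The letters lie 39 and 17 bases after the start in Mcm3 and Mcm7, and 146, 103 and 3 bases before it in Mcm5, Mcm6 and Rfc3.
Mcm3, minus strand, chr1:20820263-20820292: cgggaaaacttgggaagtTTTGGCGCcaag
Mcm5, plus strand, chr8:75109345-75109374: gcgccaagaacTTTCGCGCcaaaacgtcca
Mcm6, minus strand, chr1:128359797-128359826: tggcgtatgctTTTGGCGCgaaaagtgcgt
Mcm7, minus strand, chr5:138171849-138171878: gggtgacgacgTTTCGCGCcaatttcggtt
Rfc3, minus strand, chr5:151651200-151651229: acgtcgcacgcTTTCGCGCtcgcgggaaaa

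The 3 members with YY1 letters are shown because YY1 is the factor that was lowered, with the letters in capitals and on the strand where they read AANATGGCG. Mcm5 and Pole2 had log2 fold changes of -0.10 each and Rrm1 0.09, all with overlapping groups. The letters lie after the start in Pole2 and before it in Mcm5 and Rrm1.
Mcm5, minus strand, chr8:75109308-75109337: taaccgagcaAAGATGGCGgagaggctcgg
Pole2, minus strand, chr12:69228148-69228177: ccaaatcgcgAACATGGCGccggagcggct
Rrm1, plus strand, chr7:102441596-102441625: gcccacacccAATATGGCGgcaggagaact

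Other cell cycle lists were set beside the replication genes. Of 29 further replication genes, 24 lay above 0, with a median log2 fold change of 0.18. With edgeR 0 passed, and an unadjusted p under 0.05 was found for 6, all higher (20.7%), against 5.38% of all genes in that direction. The groups lay apart for 4, all higher (13.8%), against 7.36% of all genes in that direction. Tipin, a fork protection factor, had 34.0, 36.4 and 42.0 CPM in YY1 siRNA samples, against 26.2, 28.8 and 34.1 CPM in control siRNA samples (log2 fold change 0.33, SE 0.11, edgeR adjusted p 0.317). With the share of counts outside genes as a covariate its log2 fold change was 0.20. Pole3, a histone-fold subunit of polymerase epsilon, stood at 22.4 ± 1.07 CPM in YY1 siRNA and 19.0 ± 0.934 CPM in control siRNA samples (SD, n = 3), with no overlap. Of 24 further E2F targets and S-phase entry genes, 20 were above 0 (median 0.15) and 0 passed. Such a p was found for 8, all higher (33.3%), against 5.38% of all genes in that direction. The groups lay apart for 7 of these 24, all higher (29.2%), against 7.36% of all genes in that direction. Uhrf1, which guides maintenance DNA methylation at the fork, had 59.2, 56.8 and 54.6 CPM in YY1 siRNA samples, against 41.1, 47.2 and 53.3 CPM in control siRNA samples. The groups lay apart, and its log2 fold change of 0.27 was 0.18 without control siRNA sample 1.

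Of 30 mitosis genes, 30 lay above 0 (median 0.16), against 50.2% of all genes, and 0 passed the adjusted threshold. An unadjusted p under 0.05 was found for 10, all higher (33.3%), against 5.38% of all genes in that direction. The samples of the groups lay apart for only 1 of the 30 (3.33%), which was higher, against 7.36% of all genes in that direction. Kif11, the spindle motor, stood at 89.7 ± 10.9 CPM in YY1 siRNA and 69.6 ± 9.34 CPM in control siRNA samples, with a log2 fold change of 0.37 that was 0.22 with the share of counts outside genes as a covariate, and Birc5 (survivin) at 58.3 ± 5.31 and 47.1 ± 6.09 CPM. The list of G1 cyclins, kinases and inhibitors had 16 of 19 genes tested, of which 8 lay above 0 (median -0.02) and 0 passed. In this list 2 had an unadjusted p under 0.05 (12.5%), both higher, against 10.8% of all genes in either direction and 5.38% higher. They were the inhibitor genes Cdkn1b (145 ± 13.7 and 125 ± 7.10 CPM) and Cdkn2d (40.5 ± 1.54 and 35.3 ± 2.31 CPM). The groups lay apart for 4 of the 16 (25%), 3 higher and 1 lower, against 16.3% of all genes in either direction. For Cdkn1b the log2 fold change of 0.22 was 0.13 without YY1 siRNA sample 6. As medians of log2 CPM relative to the 6-library mean, replication genes stood at 0.08, 0.01 and 0.09 in YY1 siRNA samples 4, 5 and 6, against -0.14, -0.14 and 0.08 in control siRNA samples 1, 2 and 3. Mitosis genes stood at 0.13, 0.03 and 0.10 in YY1 siRNA samples, against -0.25, -0.12 and 0.09 in control siRNA samples. The 29 further replication genes stood at -0.02, -0.01 and 0.16, against -0.15, -0.10 and 0.04, so only YY1 siRNA sample 6 lay above control siRNA sample 3. The further E2F targets and S-phase entry genes stood at 0.07, 0.07 and 0.08, against -0.18, -0.12 and 0.04. The G1 list stayed between -0.03 and 0.03 in all 6 libraries.

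**Figure D5:**
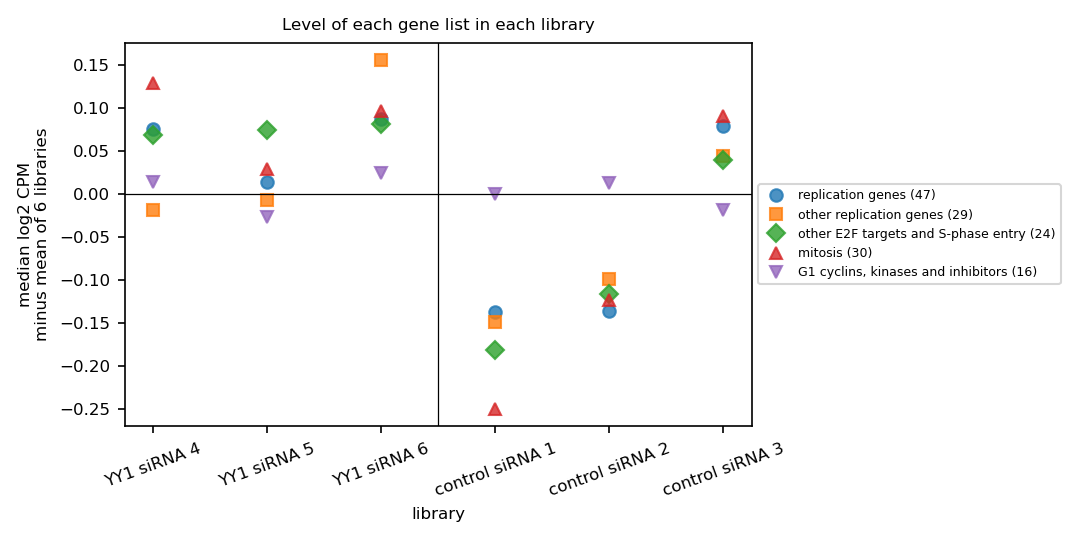
Median log2 CPM of each gene list relative to its 6-library mean, by library; the number of genes tested is in the legend. Replication, E2F target and mitosis lists are lowest in control siRNA samples 1 and 2, while in control siRNA sample 3 these lists lie above 0 and the G1 list stays near 0 throughout.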

How the data were processed

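RNA-seq of 6 samples was used, 3 per group. The authors deposited raw counts per gene symbol for each sample. STAR 2.6.1a, edgeR 3.30.0 and mm10 are named per the submitters' processing notes, and those notes and labels state neither the counting program nor the annotation or strand setting. The labels mark 5 samples as combined, without saying what that means, and leave out YY1 siRNA sample 6. Rows holding counts in no gene (7.87% to 11.3%) and ambiguous counts (1.01% to 1.15%) were left out. Samples of a group differed by more than counting noise in each pair (chi-square over its degrees of freedom, 3.13 to 32.5).

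The whole table was fitted with edgeR 4.0.16 (R 4.3.3), using filterByExpr, TMM, robust dispersions and the two-sided quasi-likelihood F test. P-values were adjusted by Benjamini-Hochberg over 12148 genes, and 0.05 was the threshold. CPM here means CPM after TMM scaling. At these depths 3 counts equal 0.144 to 0.196 CPM. Log2 levels by library used a prior count of 2, and deviations set against exon length a pseudocount of 0.5 CPM. RPKM divides CPM by the exon union in GENCODE M21. Alternatives were RLE, library size alone, other filters, thinned counts, DESeq2 1.42.0, limma-voom (limma 3.58.1), no robust estimation, the no-gene share as covariate, leaving out each sample, and leaving out YY1 siRNA samples 5 and 6. Steps were tested on simulated data.

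The members and lists were chosen with earlier results of these data known. Named were Yy1, members with an unadjusted p under 0.05, the member of each role with the largest change and the one with the highest CPM, and the 2 genes of each other list with the smallest p, of which 1 is not reported here. Other members are named to account for all 47 and were chosen after their values were seen, as were the markers and the genes overlapping members.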

Additional observations from a re-analysis of the deposited data

Results flagged for a closer look

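Counts outside genes, which are no part of the values compared, made up 10.7% of YY1 siRNA sample 5 and 11.3% of sample 6, above all 3 control siRNA samples (7.99% to 9.03%), while YY1 siRNA sample 4 had 7.87%. With this share as a covariate, 38 of 47 replication genes had a fitted change above 0 and 5 were higher at an unadjusted p under 0.05, against 2.89% of all genes in that direction. Without the covariate these were 39, 11 and 5.38%.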

How the results depend on the processing

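No replication gene passed the adjusted threshold under any of the 16 alternatives run, nor did any gene of the other cell cycle lists. No paired analysis was run, because the labels do not say whether samples of the groups were paired. Replication genes at an unadjusted p under 0.05 numbered 11 as reported and 5 with the no-gene share as covariate (2.89% of all genes higher in that fit). With library size alone and with DESeq2 they numbered 8 and 10, all higher, against 4.92% and 3.36% of all genes higher. With no filter and with thinned counts they numbered 12 and 12, all higher, against 5.10% and 5.77%. Without each sample in turn they numbered 4 to 17. Leaving out control siRNA samples 1, 2 and 3 gave 6, 4 and 17, with 2.58%, 2.86% and 6.45% of all genes higher. Leaving out YY1 siRNA samples 4, 5 and 6 gave 12, 10 and 9 (11, 10 and 8 higher). The shares of all genes were then 19.1%, 11.7% and 8.20% in either direction, and 10.65%, 5.70% and 3.17% higher. Without YY1 siRNA samples 5 and 6, sample 4 is assumed to vary like the controls, and the median log2 fold change was 0.16. Replication genes with groups that did not overlap numbered 8 as reported, 6 with library size alone and 6 with thinned counts. All of these were higher, against 7.36%, 5.69% and 7.83% of all genes higher. Without each sample the number with groups apart was 8 to 26. Leaving out control siRNA samples 1, 2 and 3 gave 11, 8 and 26, against 20.6%, 22.8% and 32.1% of all genes. Leaving out YY1 siRNA samples 4, 5 and 6 gave 11, 12 and 12 (10, 11 and 11 higher). The shares of all genes were then 36.7%, 28.6% and 23.7% in either direction, and 17.75%, 12.95% and 10.1% higher. Without YY1 siRNA samples 5 and 6 together the number was 24 (22 of them higher), against 59.2% of all genes. Groups of fewer samples overlap less often. Members above 0 numbered 37 to 42, and the median log2 fold change was 0.08 without control siRNA sample 1 to 0.18 without control siRNA sample 3. Genes called numbered 1 of 12148 as reported, 7 with library size alone, 83 of 17048 without a filter, 19 of 17046 with DESeq2 and 1 to 41 of 12225 to 12239 without each sample, namely 41 leaving out YY1 siRNA sample 4, 3 leaving out sample 6, 2 leaving out control siRNA sample 3 and 1 otherwise. Yy1 passed throughout, at -0.70 to -0.67 without each sample. Rpa3 reversed to -0.024 with the covariate and -0.075 without YY1 siRNA samples 5 and 6. Rpa1 ranged from -0.034 to 0.0695 leaving out each sample, reversing when YY1 siRNA sample 4 or, at -0.0055, control siRNA sample 3 was left out. The cause was not tested. Intervals wider than 1.5-fold for 12 members limit what could be detected.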
